A study of Mus musculus with 8 samples.

Results

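The mitochondrial genome and its nuclear copy on chromosome 1 were described in peak lists of OCT4 CUT&RUN from mouse embryonic stem cells. CUT&RUN uses an antibody to bring a nuclease to a DNA-binding protein in permeabilized cells or nuclei, and the DNA that the nuclease releases is sequenced. In this study nuclei were extracted from the cells before the antibody was added, so mitochondrial DNA was assayed only as far as it stayed with the nuclei. The members were all entries on the mitochondrial genome, and all entries on chromosome 1 of GRCm38 whose summit lies from 24.6 to 24.7 Mb. They numbered 340 of the 20955 entries in the 6 lists, 299 on the mitochondrial genome and 41 in the chromosome 1 window. An entry is 1 summit of a called region, so a region with several summits has several entries.

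The cells were the male line E14, labelled with the strain C57BL/6J and grown in N2B27 medium with 2i, which are inhibitors of GSK and MEK. Every library came from this line, and the study names no genetic change and no further treatment. There were 3 preparations of the released DNA, with 2 OCT4 libraries of each. Conventional libraries do not report cytosine modification, bisulfite libraries entered peak calling with their methylated reads only, and hmC-Seal libraries hold fragments pulled down through 5-hydroxymethylcytosine. Peaks were called in each library against IgG, for which a conventional and a bisulfite library exist, but no hmC-Seal library. The labels do not say that replicates came from separate cultures, so their spread may be technical. Where 2 values are given for a preparation, they are replicates 1 and 2 in that order.

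The mitochondrial genome is a circle of DNA outside the nucleus that is present in many copies per cell. It encodes subunits of the respiratory chain and the rRNAs and tRNAs that translate them, and its control region holds the promoters and the origin of heavy-strand replication. Pieces of it have been inserted into nuclear chromosomes during evolution, and reads from such a copy and from the mitochondrial genome are hard to tell apart.

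The copy on chromosome 1 was delimited first. In NCBIM37, the mouse genome sequence at hand, the mitochondrial bases 6390 to 11042 match chromosome 1 on the minus strand with an identity of 99.936%, with 2 mismatches and 1 gap in 4654 aligned columns. The next best match on that chromosome had an identity of at most 87.2%. All 37 mitochondrial genes have the same start and end in the annotation of that build and in the RefSeq table of GRCm38.p6. In GRCm38 the copy was placed through 2 annotated pseudogenes that have the lengths of their mitochondrial counterparts, Gm10222 for mt-Nd4l (297 bp) and Gm10925 for mt-Atp6 (681 bp). This places it on chromosome 1 from 24611535 to 24616188. The matched part makes up 28.55% of the mitochondrial genome of 16299 bp and runs from the end of mt-Co1 through mt-Co2, mt-Atp8, mt-Atp6, mt-Co3, mt-Nd3 and mt-Nd4l into mt-Nd4.

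Of the 41 entries in the chromosome 1 window, 40 lie in the copy. The other one, in hmC-Seal replicate 2, spans chr1:24678822-24678929, inside Lmbrd1, with a fold enrichment of 3.46 and a −log10 q of 1.48. Fold enrichment is the ratio of the pileup of OCT4 fragments at the summit to the local IgG background, and −log10 q is the significance that the peak caller gave the summit.

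Sequences are shown for the sites in protein-coding genes at which all 6 libraries had a summit within 50 bp, and for a site in mt-Co3 that was called on chromosome 1 in 5 libraries. They were read by gene and offset from the mitochondrial transcripts of GENCODE M1, which belong to NCBIM37. Their lengths equal the gene spans in GRCm38.p6, whose coordinates are given, but the bases could not be compared with GRCm38. Each has 101 bases on the plus strand, with CpG dinucleotides in capitals. Those in mt-Co3 and mt-Cytb begin at the gene start, so they are not centred on their sites.
mt-Nd2, chrM:4558-4658: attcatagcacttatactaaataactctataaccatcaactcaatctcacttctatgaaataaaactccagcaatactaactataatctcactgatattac
mt-Co3, chrM:8607-8707: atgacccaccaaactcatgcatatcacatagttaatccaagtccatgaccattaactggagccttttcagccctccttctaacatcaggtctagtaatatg
mt-Nd4, chrM:11230-11330: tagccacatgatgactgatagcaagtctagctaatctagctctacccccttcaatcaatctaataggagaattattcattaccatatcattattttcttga
mt-Nd5, chrM:13241-13341: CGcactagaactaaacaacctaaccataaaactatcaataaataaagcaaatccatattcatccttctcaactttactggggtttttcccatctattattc
mt-Cytb, chrM:14145-14245: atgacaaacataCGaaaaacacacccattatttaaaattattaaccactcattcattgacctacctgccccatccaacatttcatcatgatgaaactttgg

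The windows shown have 0 CpGs in mt-Nd2, mt-Co3 and mt-Nd4 and 1 in each of the others. Over all 10103 windows of this length in the 13 protein-coding genes the mean was 1.73 CpGs. Around the summits of each library that lie at least 50 bp inside such a gene, the mean was 1.17 and 1.57 (conventional, 12 and 21 windows), 0.857 and 1.25 (bisulfite, 7 and 20 windows), and 1.66 and 1.65 (hmC-Seal, 62 and 54 windows). The median was 1.00 over all windows and in each library but hmC-Seal replicate 2, where it was 1.50. Many of these windows are shared between libraries, and no test was made of them.

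How much of each list fell on the mitochondrial genome was compared between preparations. Conventional replicates 1 and 2 had 29 and 44 mitochondrial summits, bisulfite replicates 17 and 36, and hmC-Seal replicates 86 and 87. The hmC-Seal values lay above all others, whereas the conventional and bisulfite libraries overlapped. The methods name the same numbered pools for the conventional and bisulfite OCT4 libraries, without saying what a pool is, and within each number bisulfite had fewer summits (17 against 29 and 36 against 44). The mean of hmC-Seal, 86.5 ± 0.707 (SD, n = 2), was 2.37 times that of conventional, 36.5 ± 10.6 (SD, n = 2; two-sided exact permutation test, p = 0.333, adjusted p = 0.500). It was 3.26 times that of bisulfite, 26.5 ± 13.4 (SD, n = 2; exact permutation, p = 0.333, adjusted p = 0.500), and the ratio of bisulfite to conventional was 0.726 (exact permutation, p = 0.667, adjusted p = 0.727). Among summits with a −log10 q of at least 10, the ratios in this order became 5.61 and 5.16, and the last turned to 1.09. Inside the part matched by chromosome 1 there were 1 and 3 (conventional), 3 and 9 (bisulfite), and 30 and 27 (hmC-Seal) summits. Outside it there were 28 and 41, 14 and 27, and 56 and 60, in the same order. The hmC-Seal libraries lay highest in both parts, but their excess was larger inside the matched part, and ratios were not formed for each part. With 2 libraries against 2 no p below 0.333 is possible, and p-values were adjusted over 12 tests by the method of Benjamini and Hochberg.

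The larger number of hmC-Seal summits did not come with more regions. Conventional replicates 1 and 2 had 15 and 19 mitochondrial regions, bisulfite replicates 10 and 18, and hmC-Seal replicates 14 and 11. Counted as regions, the ratio of hmC-Seal to conventional turned to 0.735, and that to bisulfite to 0.893. The hmC-Seal regions were longer, up to 3200 and 5956 bp in replicates 1 and 2, against at most 1351 bp in the conventional and 691 bp in the bisulfite libraries.

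As a share of its list, the mitochondrial genome held most in the conventional libraries. It took 12.8% (95% Wilson interval 9.04% to 17.7%) and 16.6% (12.6% to 21.6%) of the 227 and 265 summits of conventional replicates 1 and 2. The share was 0.608% (0.380% to 0.971%) and 1.73% (1.25% to 2.39%) of the 2797 and 2077 summits of bisulfite replicates, and 2.16% (1.76% to 2.66%) and 0.749% (0.608% to 0.923%) of the 3974 and 11615 summits of hmC-Seal replicates. These intervals cover counting error only. The mean share of 14.7% ± 2.71 (SD, n = 2) in conventional was above those of 1.17% ± 0.796 in bisulfite and 1.46% ± 1.00 in hmC-Seal (SD, n = 2 each; exact permutation, p = 0.333, adjusted p = 0.500 for both). Counted as regions, the differences from conventional shrank from -13.5 to -7.34 (bisulfite) and from -13.2 to -7.73 percentage points (hmC-Seal). Bisulfite and hmC-Seal overlapped (difference 0.286 percentage points, exact permutation, p = 0.667, adjusted p = 0.727), and that difference turned to -0.422 without hmC-Seal replicate 1, to -0.277 without bisulfite replicate 1 and to -0.396 when regions were counted. The conventional lists are also the shortest.

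**Figure D1:**
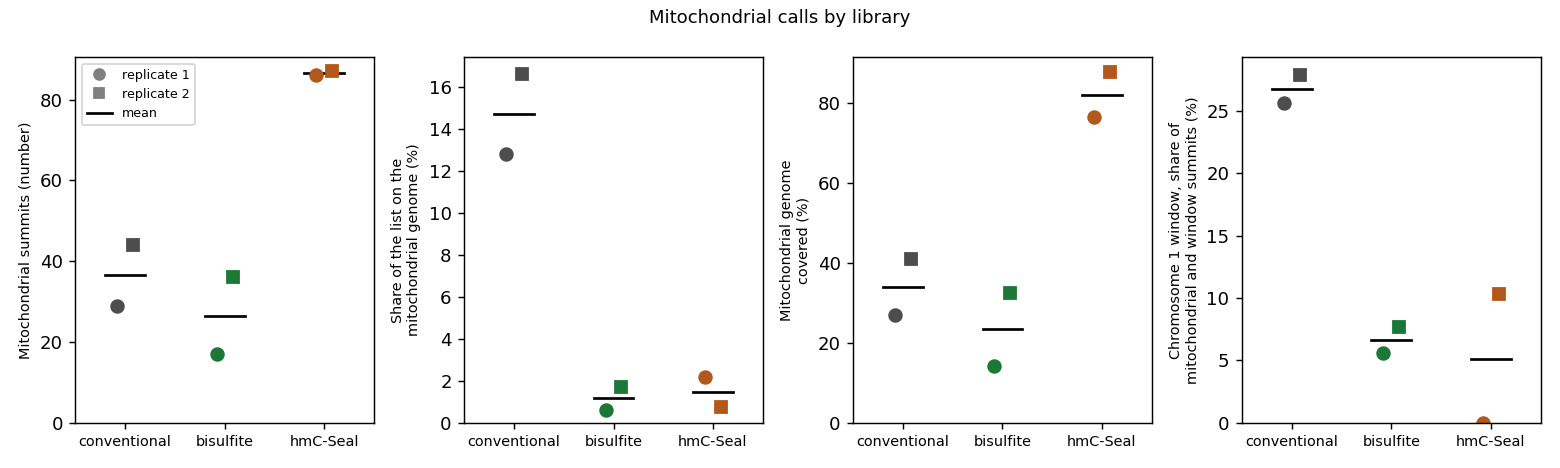
Each panel gives 1 measure for the 6 libraries, with circles for replicate 1, squares for replicate 2 and a line at the mean: the number of mitochondrial summits, their share of the list in percent, the percent of the mitochondrial genome covered, and the chromosome 1 window as a percent of mitochondrial and window summits. The hmC-Seal libraries lie highest in number (86 and 87) and coverage, and the conventional libraries in both shares.

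Regions covered 27.1% and 40.9% of the mitochondrial genome in conventional replicates 1 and 2, 14.3% and 32.5% (bisulfite), and 76.4% and 87.8% (hmC-Seal). Both hmC-Seal libraries lay above all others. Their mean of 82.1% ± 8.12 (SD, n = 2) exceeded that of conventional, 34.0% ± 9.77, by 48.1 percentage points, and that of bisulfite, 23.4% ± 12.9, by 58.7 percentage points (SD, n = 2; exact permutation, p = 0.333 and adjusted p = 0.500 for both). Bisulfite was below conventional within each pool number, but across numbers they overlapped (difference -10.6 percentage points, exact permutation, p = 0.667, adjusted p = 0.727). This difference shrank to -1.48 without bisulfite replicate 1 and to -3.69 without conventional replicate 2. It grew to -19.7 without bisulfite replicate 2 and to -17.5 without conventional replicate 1.

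Overlap of mitochondrial regions between replicates was counted next. In conventional replicate 1, 15 of 15 overlapped a region of the other replicate, beside 60.6% over its whole list, and in conventional replicate 2, 12 of 19 did (whole list 54.1%). In bisulfite replicates 1 and 2 these were 10 of 10 (whole list 36.7%) and 10 of 18 (whole list 50.3%). In hmC-Seal replicates 1 and 2 they were 14 of 14 (whole list 32.0%) and 10 of 11 (whole list 10.0%). The mitochondrial regions of hmC-Seal are long and cover most of the molecule, so an overlap there asks little of position. Summits are a closer measure: 25 of 29 and 25 of 44 (conventional), 15 of 17 and 15 of 36 (bisulfite), and 73 of 86 and 74 of 87 (hmC-Seal) lay within 50 bp of a summit of the other replicate. Among all other entries the shares were 48.9% and 45.6%, 33.8% and 46.0%, and 27.5% and 9.24%, so that the 41.7% of bisulfite replicate 2 was below its share elsewhere. With 86 and 87 summits on 16299 bp, many hmC-Seal summits would lie that close by position alone. To a lesser degree this holds for the conventional and bisulfite summits too, and it was not tested for any library.

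Joining the regions of all lists gave 5 mitochondrial stretches, of which 4 were called in all 6 libraries, beside 56 of 16027 stretches (0.349%) elsewhere in the genome. These 4 run from 27 to 678 (mt-Tf and mt-Rnr1), from 1532 to 4782 (mt-Rnr2 to mt-Nd2), from 5202 to 15686 (mt-Tc to the control region) and from 15874 to 16277 (control region). These stretches are long, and base by base 1813 bp (11.1%) were covered in all 6 libraries, in 9 runs of 21 to 395 bp. The longest run lies from 11235 to 11629, across the end of mt-Nd4, mt-Th and mt-Ts2. No library covered 854 bp (5.24%). The longest such run, 419 bp from 4783 to 5201, holds the end of mt-Nd2 and the tRNA genes mt-Tw, mt-Ta, mt-Tn and mt-Tc, the last in part, and another of 187 bp, from 15687 to 15873, lies inside the control region.

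**Figure D2:**
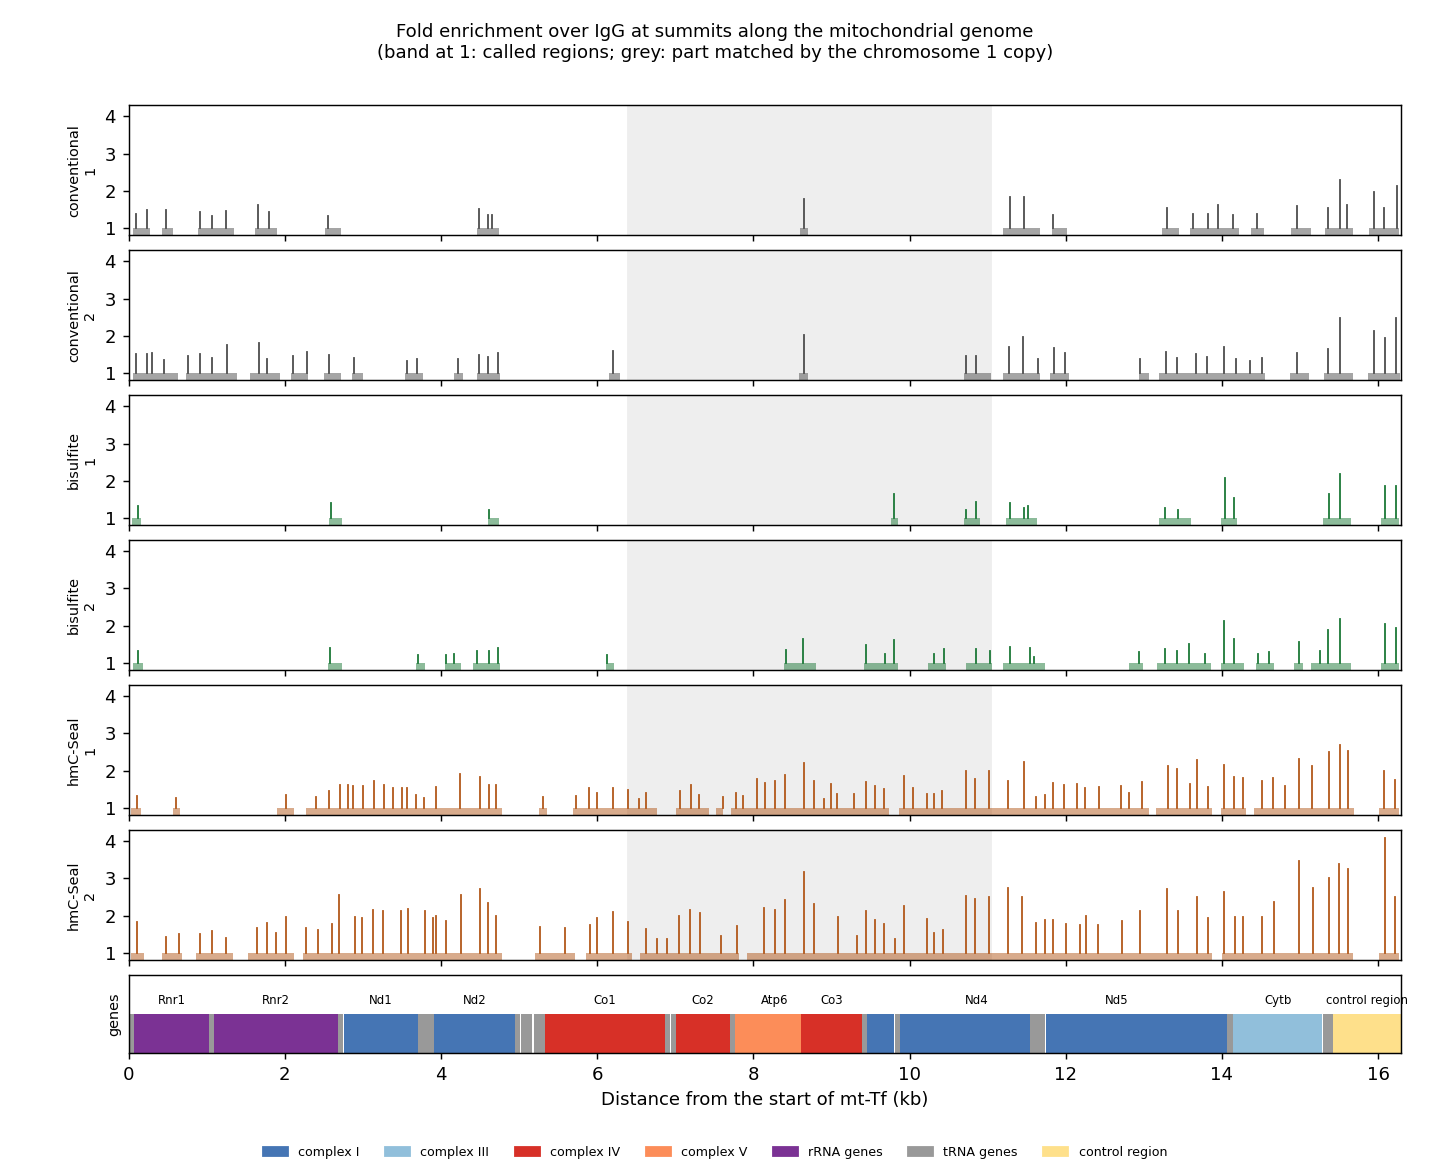
Lines give the fold enrichment over IgG at each mitochondrial summit against the distance from the start of mt-Tf in kb, with a row per library, called regions as bands, genes in the lowest row and the part matched by chromosome 1 in grey. The conventional libraries have 1 and 3 summits in the grey part, the hmC-Seal libraries 30 and 27, and all libraries have a tall summit at the start of the control region.

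The control region, 877 bp between the last gene, mt-Tp, and the end of the sequence, was covered to 74.3% and 75.8% (conventional), 52.9% and 53.4% (bisulfite), and 59.9% and 59.4% (hmC-Seal). Both conventional libraries covered more of it than either hmC-Seal library. In the rRNA genes the groups overlapped, with 46.7% and 75.9% covered in conventional and 31.7% and 71.8% in hmC-Seal replicates. Summits in it numbered 5 and 4 (conventional), 3 and 3 (bisulfite), and 4 and 4 (hmC-Seal).

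The region of highest −log10 q on the mitochondrial genome had its summit at the start of the control region in 5 libraries. It spans 15321 to 15682 in conventional replicate 1 and 15312 to 15683 in replicate 2, 15299 to 15655 and 15140 to 15657 in bisulfite replicates 1 and 2, and 14410 to 15686 in hmC-Seal replicate 1. The other hmC-Seal library had the region from 7915 to 13870 instead, with its best summit at 8647 in mt-Co3 and a −log10 q of 77.7, and the control region site followed with 75.9. At the control region site the summits of all 6 libraries lay within 9 bp, from 15504 to 15513. The fold enrichment there was 2.30 and 2.49 (conventional), 2.18 and 2.18 (bisulfite), and 2.69 and 3.38 (hmC-Seal). The −log10 q was 60.8 and 79.8, 98.6 and 95.8, and 155 and 75.9, in the same order. The best mitochondrial summit ranked 1 and 1 (conventional), 2 and 1 (bisulfite), and 3 and 83 (hmC-Seal) by −log10 q in the whole list, the last being the mt-Co3 summit.

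Sites with a summit of every library within 50 bp numbered 10. Besides the site at 15508, the control region had one centred on 16085, with a fold enrichment of 1.55 and 1.93 (conventional), 1.87 and 2.05 (bisulfite) and 1.98 and 4.08 (hmC-Seal), and one on 16225, with 2.12 and 2.48, 1.87 and 1.94, and 1.75 and 2.51. The value of 4.08 was the highest fold enrichment of any mitochondrial summit in the 6 lists. A site in mt-Tp, the tRNA gene for proline that borders the control region, had 1.55 and 1.65 (conventional), 1.64 and 1.87 (bisulfite) and 2.49 and 3.00 (hmC-Seal). In mt-Nd2 the site centred on 4608 had summits within 10 bp of each other, with 1.36 and 1.42 (conventional), 1.22 and 1.32 (bisulfite) and 1.62 and 2.34 (hmC-Seal).

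The remaining 5 sites lie in genes of complexes I and III and in the rRNA genes. In mt-Nd4, at 11280, the fold enrichment was 1.84 and 1.69 (conventional), 1.41 and 1.42 (bisulfite) and 1.71 and 2.75 (hmC-Seal). In mt-Nd5, at 13291, it was 1.54 and 1.57, 1.27 and 1.38, and 2.12 and 2.72, in the same order. At the site centred on 14160, base 16 of mt-Cytb, it was 1.35 and 1.38, 1.53 and 1.64, and 1.84 and 1.97. The summit of conventional replicate 1 at this site, at 14138, lies in mt-Te, outside the window shown. The sites in mt-Rnr1 and mt-Rnr2, for the rRNAs of the small and large ribosomal subunits, were between 1.31 and 1.82 in the 6 libraries. None of the 10 sites lies in the part matched by chromosome 1.

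**Figure D3:**
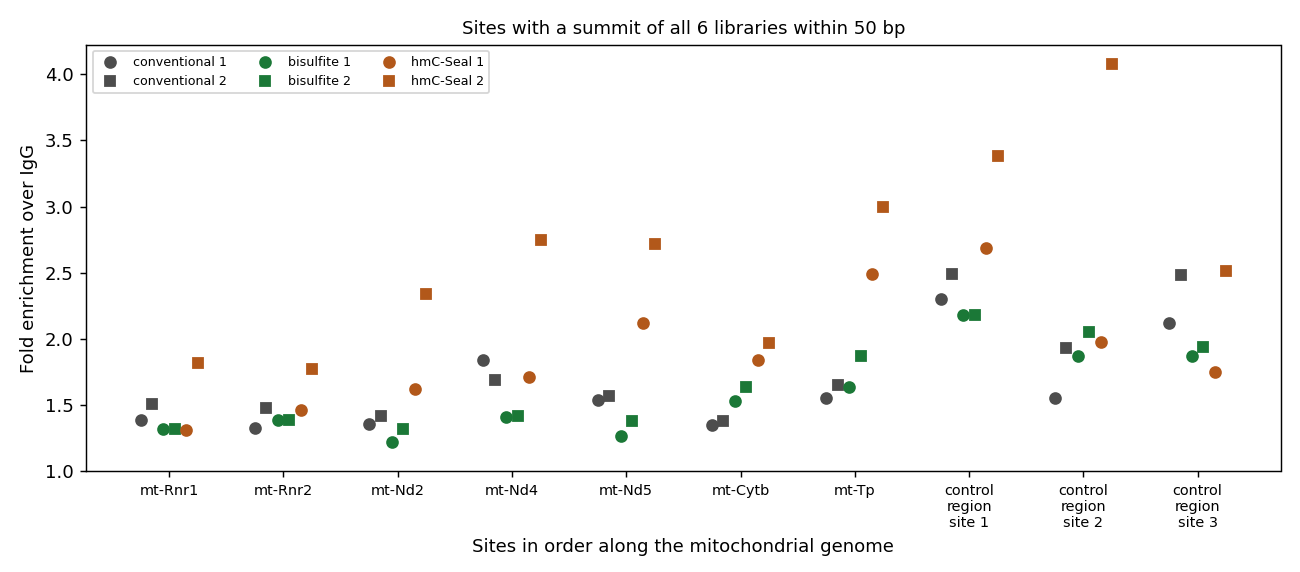
Points give the fold enrichment over IgG of each library at the 10 sites where all 6 libraries had a summit within 50 bp, in order along the mitochondrial genome and named by feature, with circles for replicate 1 and squares for replicate 2. The control region sites reach 2.69 and 4.08 (hmC-Seal), and the rRNA gene sites are at most 1.82.

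Among the protein-coding genes, 13 of 13 held a summit in both hmC-Seal libraries, 6 and 8 (conventional), and 6 and 9 (bisulfite). Both conventional libraries lacked one in mt-Co2, mt-Atp8, mt-Atp6, mt-Nd3 and mt-Nd4l, which lie wholly inside the part matched by chromosome 1. Replicate 1 also lacked one in mt-Nd1 and mt-Co1. On chromosome 1, both conventional libraries had summits opposite mt-Co2, mt-Atp6 and mt-Nd4l, and neither had one opposite mt-Atp8. Complex I, which takes electrons from NADH, has 7 mitochondrial genes. Its genes held 10 and 19 summits in conventional replicates, 10 and 19 (bisulfite) and 40 and 35 (hmC-Seal). The complex I gene mt-Nd4 had 2 and 4, 5 and 6, and 8 and 8 of these, and mt-Nd5 had 2 and 5, 2 and 3, and 10 and 9. The gene mt-Nd6, on the minus strand, had 3 and 3, 1 and 3, and 4 and 3. No summit fell in mt-Nd1 in conventional replicate 1 or in either bisulfite library, whereas conventional replicate 2 had 3 and hmC-Seal replicates 1 and 2 had 9 and 6 there.

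In mt-Cytb, the mitochondrial subunit of complex III, conventional replicates 1 and 2 had 2 and 4 summits, bisulfite replicates 1 and 5, and hmC-Seal replicates 7 and 6. Complex IV, cytochrome c oxidase, passes electrons to oxygen. Its genes mt-Co1, mt-Co2 and mt-Co3 held 1 and 2 summits in conventional, 0 and 2 (bisulfite) and 17 and 15 (hmC-Seal), and were covered to 3.05% and 7.60%, 0% and 9.43%, and 79.5% and 92.2%. Complex V, the ATP synthase, which uses the proton gradient, with mt-Atp6 and mt-Atp8, had no summit in conventional libraries and bisulfite replicate 1, 1 in bisulfite replicate 2, and 6 and 4 (hmC-Seal). The genes mt-Co2, mt-Co3, mt-Atp6 and mt-Atp8 lie wholly inside the part matched by chromosome 1.

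The rRNA genes showed another order. Conventional replicates 1 and 2 had 8 and 12 summits there, bisulfite replicates 2 and 2, and hmC-Seal replicates 5 and 12. They were covered to 7.92% and 9.26% in the bisulfite libraries, below each conventional and hmC-Seal library. The 22 tRNA genes held 3 and 3, 1 and 4, and 7 and 11 summits in conventional, bisulfite and hmC-Seal replicates. Differences between gene classes were not tested.

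The octamer ATGCAAAT, the element that POU-family factors such as OCT4 bind, was searched on both strands of the 13 protein-coding genes, 11403 bases with overlaps between genes counted in each. It occurred once, as ATTTGCAT in mt-Cytb, at chrM:14969-14976, and of all windows of 101 bases in these genes 0.930% hold it. The window around it is given on the plus strand, with the octamer in capitals.
mt-Cytb, chrM:14922-15022: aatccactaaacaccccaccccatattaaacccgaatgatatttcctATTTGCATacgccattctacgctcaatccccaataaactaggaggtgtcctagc

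A summit lay within 14 bp of the middle of the octamer in 5 of 6 libraries. The fold enrichment there was 1.58 and 1.54 (conventional), at 14965 and 14959, 1.56 in bisulfite replicate 2, at 14983, and 2.30 and 3.46 (hmC-Seal), at 14984 and 14986. In bisulfite replicate 1 the nearest summit was 400 bp away. Of the windows around summits, 1 of 12 and 1 of 21 (conventional), 0 of 7 and 1 of 20 (bisulfite), and 1 of 62 and 1 of 54 (hmC-Seal) held the octamer. The share of all gene positions that lie within 14 bp of a summit was not counted. The match is a description of this window and no sign of binding, and the control region, rRNA and tRNA genes were not searched.

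Fold enrichment on the mitochondrial genome was low. Its median over mitochondrial summits was 1.49 and 1.50 (conventional), 1.41 and 1.35 (bisulfite), and 1.59 and 1.97 (hmC-Seal). Over all other entries the median was 7.62 and 7.76, 5.97 and 6.28, and 7.08 and 4.32, in the same order. The highest mitochondrial fold enrichment in conventional replicate 1, 2.30, exceeded that of 1 of the 188 other entries, and 4.08 in hmC-Seal replicate 2 exceeded 3851 of 11518 (33.4%). The median −log10 q was nevertheless as high on the mitochondrial genome as elsewhere or higher, with 6.23 and 6.26 against 5.76 and 5.81 (conventional), 11.5 and 7.27 against 6.21 and 5.88 (bisulfite), and 22.9 and 15.2 against 7.79 and 2.66 (hmC-Seal).

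Depth was estimated next: for each summit, the ratio and its −log10 p together leave a range of solutions for the pileup and the IgG background. The middle of the range is given, and of separate ranges the one with the highest background was taken. On the mitochondrial genome the range spanned up to about 2% on either side, which is not the error of the estimate. Pileups are in fragments after the peak caller's scaling between OCT4 and IgG. The median mitochondrial pileup was 341 and 360 (conventional), 566 and 571 (bisulfite), and 663 and 238 (hmC-Seal), over a median background of 229 and 234, 434 and 432, and 422 and 120. Over all other entries, where solutions span up to 53.0% on either side, the median pileup was 10.6 and 10.8 (conventional), 13.9 and 12.8 (bisulfite), and 13.3 and 11.5 (hmC-Seal). Pileups as large as the mitochondrial ones give a small fold enrichment a high significance. The IgG background was thus itself deep on the mitochondrial genome, and DNA that the antibody had no part in releasing and DNA bound by OCT4 cannot be told apart from fold enrichment alone. With no hmC-Seal IgG library, the hmC-Seal fold enrichment sets pulled-down DNA against IgG of another preparation. In it, antibody and pull-down cannot be told apart.

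**Figure D4:**
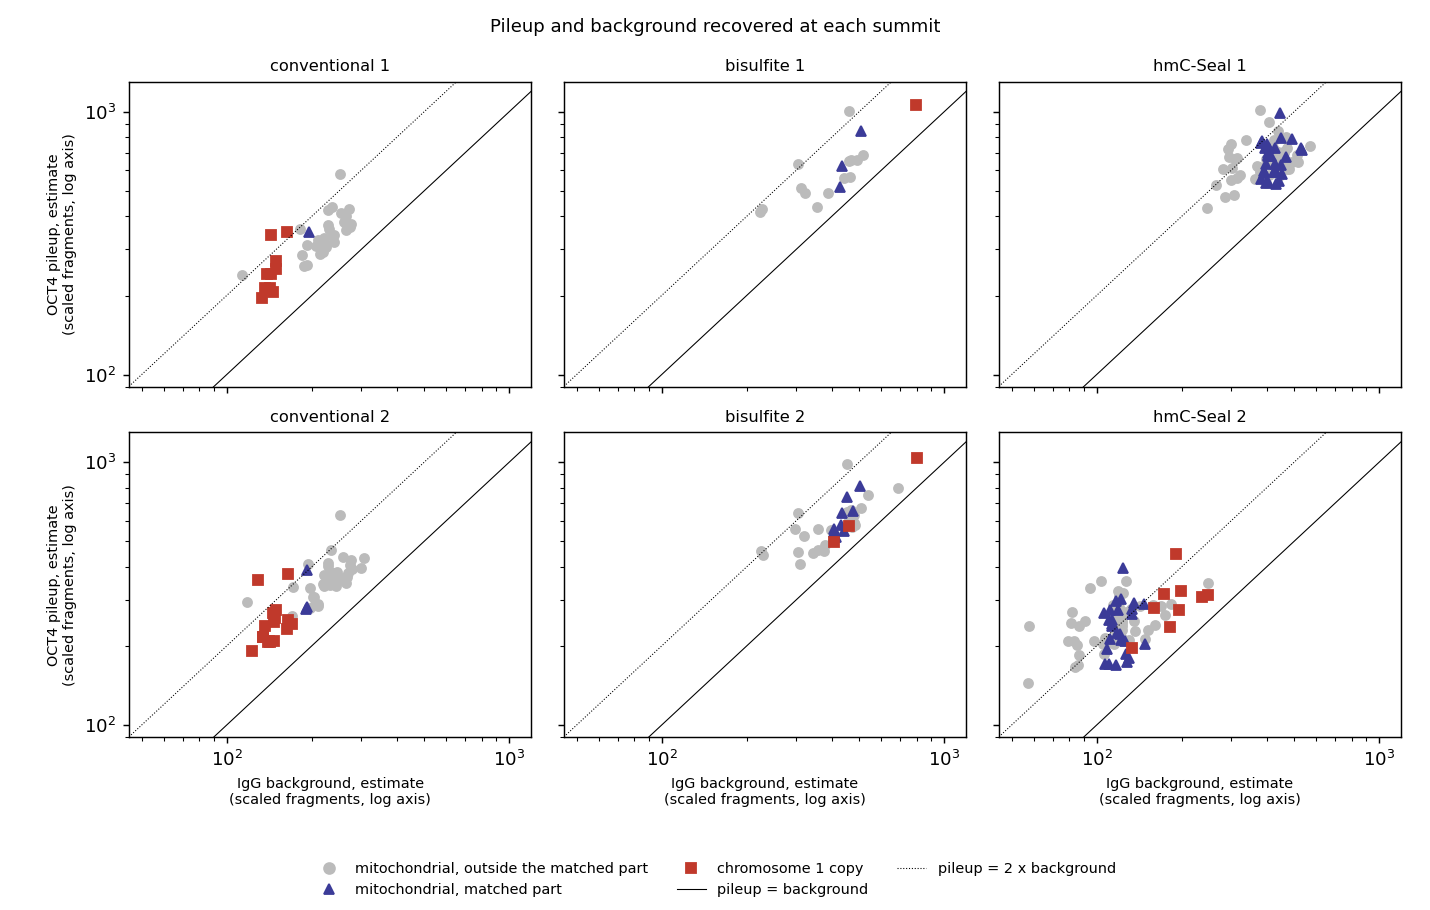
Each point is a summit, with the estimated IgG background on the x axis and the estimated OCT4 pileup on the y axis, both in scaled fragments on log axes, for mitochondrial summits outside (grey circles) and inside (blue triangles) the matched part and for the chromosome 1 copy (red squares). Solid and dotted lines mark a pileup equal to and 2 times the background; the median background of the copy is below that of mitochondrial summits in the conventional libraries (143 against 229 and 146 against 234) and above it in the bisulfite libraries (796 against 434 and 460 against 432) and hmC-Seal replicate 2 (191 against 120).

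How the chromosome 1 copy followed the mitochondrial genome was compared by preparation. The window held 10 and 17 summits in conventional replicates 1 and 2, 1 and 3 (bisulfite), and 0 and 10 (hmC-Seal). As a percent of mitochondrial and window summits, these were 25.6% (95% Wilson interval 14.6% to 41.1%) and 27.9% (18.2% to 40.2%), 5.56% (0.988% to 25.8%) and 7.69% (2.65% to 20.3%), and 0% (up to 4.28%) and 10.3% (5.70% to 17.9%). By summits, both conventional libraries lay above the other 4, and hmC-Seal replicates lay on either side of the bisulfite libraries. The mean of conventional, 26.8% ± 1.58 (SD, n = 2), exceeded that of bisulfite, 6.62% ± 1.51, by 20.1 and that of hmC-Seal, 5.16% ± 7.29, by 21.6 percentage points (SD, n = 2; exact permutation, p = 0.333 and adjusted p = 0.500 for both). Between hmC-Seal and bisulfite the difference was -1.47 percentage points (exact permutation, p = 1.00, adjusted p = 1.00), and it turned to 3.69 without hmC-Seal replicate 1. Counted as regions, the window held 6 of 21 and 6 of 25 (28.6% and 24.0%, conventional), 1 of 11 and 3 of 21 (9.09% and 14.3%, bisulfite), and 0 of 14 and 7 of 18 (0% and 38.9%, hmC-Seal). By this count hmC-Seal replicate 2 lay above both conventional libraries. The difference of hmC-Seal from conventional became -6.84 percentage points (exact permutation, p = 1.00) and that of bisulfite -14.6 (exact permutation, p = 0.333), and hmC-Seal against bisulfite turned to 7.76. Conventional reads were aligned with Bowtie 2 and the others with Bismark, so preparation and aligner cannot be told apart.

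In the conventional libraries, the copy was called more fully than the matched part. There, the matched part of the mitochondrial genome held 1 and 3 summits in replicates 1 and 2, or 0.215 and 0.645 per kb, against 2.4 and 3.52 per kb in the rest of the molecule. It was covered to 2.24% and 9.84%, against 37.0% and 53.3% of the rest, while the copy on chromosome 1 was covered to 37.0% and 53.1%. In bisulfite replicates 1 and 2 the matched part was covered to 6.62% and 30.3%, the rest to 17.3% and 33.4%, and the copy to 3.78% and 12.1%. In hmC-Seal replicates the matched part was covered to 87.9% and 95.7%, the rest to 71.7% and 84.7%, and the copy to 0% and 27.4%. The hmC-Seal libraries thus called the matched part at least as fully as the rest, and replicate 1 did so with no call on chromosome 1.

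**Figure D5:**
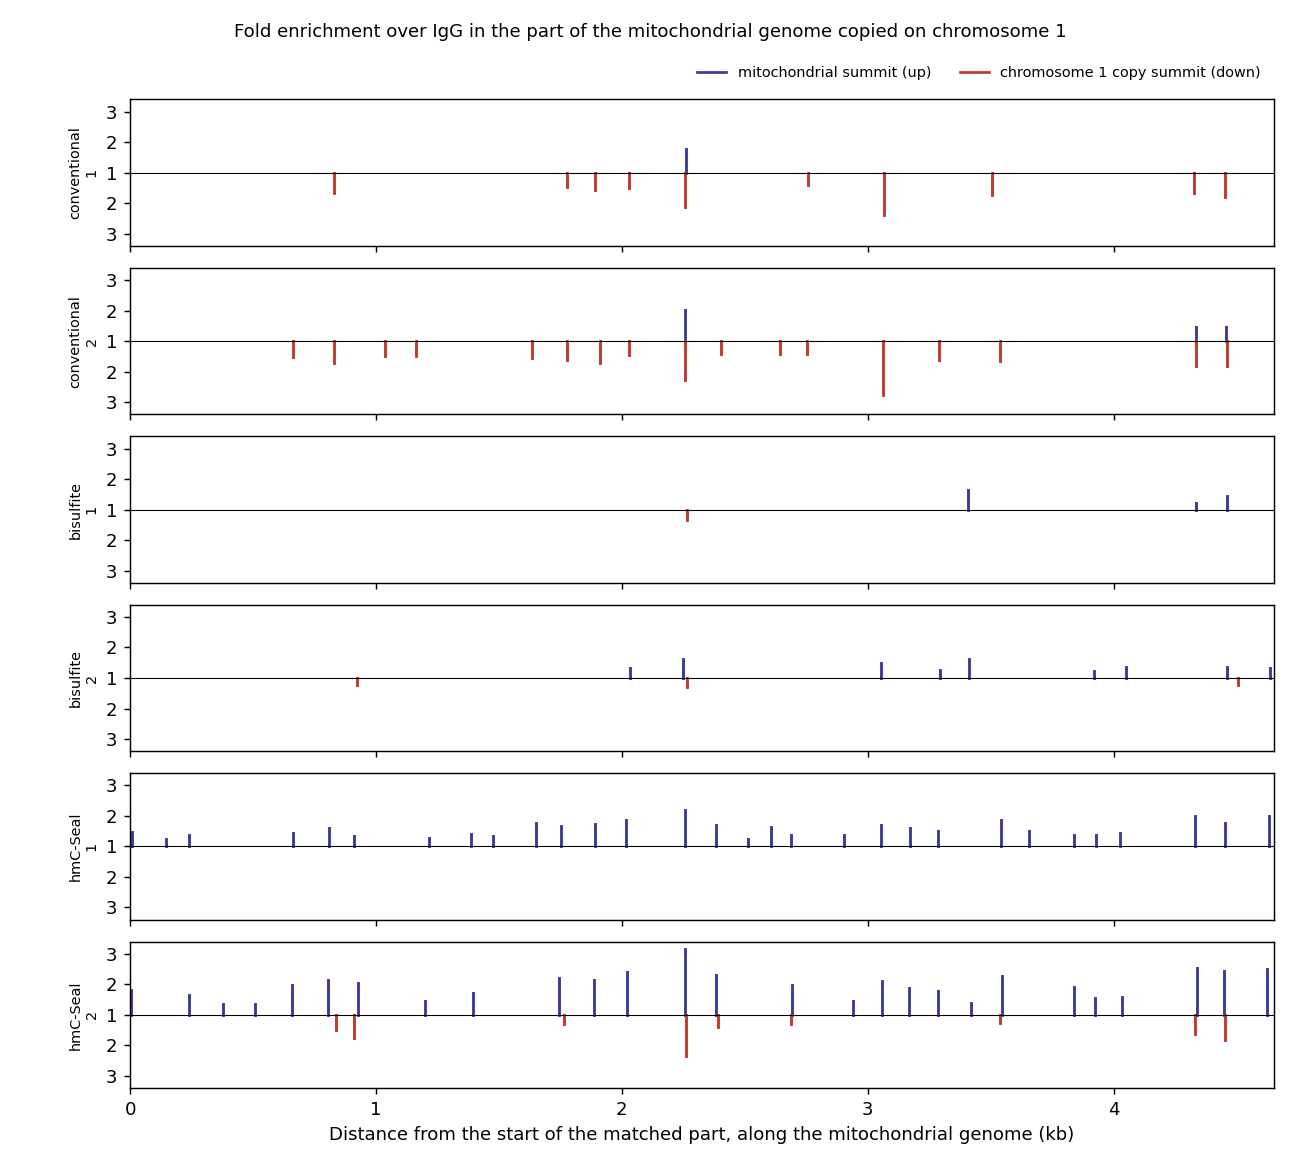
Lines up give the fold enrichment over IgG at mitochondrial summits in the matched part and lines down that at summits of the chromosome 1 copy, turned to the mitochondrial orientation, against the distance from the start of the matched part in kb, with a row per library. Conventional replicates have 10 and 17 lines down and 1 and 3 up, and hmC-Seal replicates have 0 and 9 down and 30 and 27 up.

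Turned to mitochondrial positions, the 40 summits of the copy formed 18 groups with neighbours at most 50 bp apart. All 10 summits of conventional replicate 1 lay within 50 bp of one of replicate 2, and 8 of the 9 of hmC-Seal replicate 2 lay as close to one of conventional replicate 2. A mitochondrial summit of the same library lay within 50 bp for 1 of 10 and 3 of 17 (conventional), 0 of 1 and 2 of 3 (bisulfite), and 9 of 9 summits of hmC-Seal replicate 2. The matched part held 1 and 3 mitochondrial summits (conventional), 3 and 9 (bisulfite), and 30 and 27 (hmC-Seal). Of these, 1 and 3, 0 and 2, and 0 and 9 had a copy summit within 50 bp, in the same order. In hmC-Seal replicate 2, 56.9% of the matched part lay within 50 bp of a mitochondrial summit, against 2.17% and 6.51% in conventional replicates.

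The position opposite base 41 of mt-Co3 was called, within 10 bp, on chromosome 1 in 5 libraries, all but hmC-Seal replicate 1. There the fold enrichment was 2.12 and 2.27 (conventional), 1.34 and 1.30 (bisulfite) and 2.34 in hmC-Seal replicate 2. On the mitochondrial genome the same position had 1.79 and 2.02 (conventional), 1.63 in bisulfite replicate 2 and 3.17 in hmC-Seal replicate 2. The library without a call on chromosome 1 had 2.21 there, with a −log10 q of 101. The fold enrichment was thus higher on chromosome 1 in both conventional libraries and higher on the mitochondrial genome where bisulfite replicate 2 or hmC-Seal replicate 2 had both. The estimated background on chromosome 1 and on the mitochondrial genome was 164 and 195 in conventional replicate 1, 165 and 192 in replicate 2, 802 and 453 in bisulfite replicate 2, and 191 and 124 in hmC-Seal replicate 2.

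The highest fold enrichment on the copy lay opposite mt-Tg, the tRNA gene for glycine. It was 2.38 in conventional replicate 1, with the summit opposite base 9457, and 2.75 in replicate 2, opposite base 9454, with a −log10 q of 37.2 and 52.6. It was called on chromosome 1 in no other library, and the nearest mitochondrial summit of each conventional library was 808 bp away. The other libraries had mitochondrial summits in mt-Tg, at 9444 in bisulfite replicate 2 (1.48) and at 9445 and 9447 (hmC-Seal, 1.69 and 2.11), but for bisulfite replicate 1. One of the 2 mismatches between the copy and the mitochondrial genome lies at base 9461. Opposite mt-Nd4, summits at 10718 to 10725 had 1.68 and 1.82 (conventional) and 1.62 in hmC-Seal replicate 2, and those from 10843 to 10895 had 1.81 and 1.83 (conventional), 1.22 in bisulfite replicate 2 and 1.81 in hmC-Seal replicate 2.

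The remaining summits of the copy had a fold enrichment of at most 1.75. Opposite the rest of mt-Co3, conventional replicate 1 had 1 (1.42, at 9149), conventional replicate 2 had 3 (1.41, 1.41 and 1.42, at 8792, 9032 and 9143) and hmC-Seal replicate 2 had 2 (1.40 and 1.29, at 8781 and 9079). Opposite mt-Co2, conventional replicates 1 and 2 had 1 and 4 summits, bisulfite replicate 2 had 1 and hmC-Seal replicate 2 had 2, with a fold enrichment between 1.24 and 1.75. Opposite mt-Atp6, where Gm10925 is annotated, there were 3 and 4 summits in conventional replicates and 1 in hmC-Seal replicate 2, between 1.30 and 1.73. Opposite mt-Nd4l, where Gm10222 is annotated, the same 3 libraries had 1 each, with 1.73, 1.66 and 1.27. Opposite mt-Nd3 there was 1, in conventional replicate 2, with 1.61. The median over all summits of the copy was 1.68 and 1.61 (conventional), 1.34 and 1.24 (bisulfite) and 1.48 in hmC-Seal replicate 2. Its median background was 143 and 146 (conventional), below the 229 and 237 of mitochondrial summits outside the matched part. It was above that of those summits in the other 3 libraries with a call, with 796 against 416 and 460 against 405 (bisulfite, 1 and 3 copy summits) and 191 against 120 (hmC-Seal replicate 2). Whether reads placed on chromosome 1 came from there or from mitochondria was not tested, since the sequences are nearly identical.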

How the data were processed

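The authors trimmed reads with fastp 0.19.4, aligned them to GRCm38 with Bowtie2 2.4.1 (conventional) or Bismark 0.22.3 (bisulfite and hmC-Seal), retained short fragments with deepTools 3.1.3 and only methylated reads in bisulfite libraries, and called peaks with MACS 2 per library against IgG, without spike-in calibration. Which IgG library hmC-Seal was called against is not stated, but its entry names carry the same IgG tag as those of bisulfite, and conventional entries another. In the deposited lists, fold enrichment is the authors' ratio of pileup to local background, −log10 p and −log10 q come from the authors' calls, and the deposited score is the whole part of 10 times −log10 q. No file of the IgG libraries was used here. No normalization links the lists, so folds are set side by side as descriptions.

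The members and lists were chosen with earlier results of these data known. Entries sharing start and end formed 1 region, and overlap meant at least 1 bp. Coordinates are counted from 1, except in the rule for the window. The named sites were the mitochondrial region of highest −log10 q in each library, stretches called in all 6 libraries and every entry in the window; the named genes were all mitochondrial genes. The mt-Tg, octamer and Lmbrd1 descriptions were chosen after values were seen. The copy was matched with blastn 2.17.0 in NCBIM37, used only for extent, strand and identity. Pileup and background were solved from fold enrichment (pseudocount 1) and the Poisson tail of −log10 p, a calculation first tested on made-up lists; solutions with a background near 0 were left out after seeing the data; the lists hold no read totals, so depth is an estimate, and the number of fragments limits its precision. Numbers and shares were compared by two-sided exact permutation tests over libraries. Alternatives were regions, stricter −log10 q, other distances, chromosomes only, leaving out each replicate, pairing by replicate number and, added after the data were seen, the copy without other entries of the window. The control region sequence is not shown. Python 3.11.15, numpy 2.4.6, scipy 1.17.1 and statsmodels 0.14.6 were used, and matplotlib 3.10.9 for the figures. Conventional and bisulfite libraries of the same number carry the same pool number in the authors' methods, hmC-Seal libraries a replicate number. As nothing says that replicates are separate cultures, p-values measure spread between these samples, and 95% Wilson intervals cover counting error only.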

Additional observations from a re-analysis of the deposited data

How the results depend on the processing

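With 2 libraries a group no test could pass a threshold, so only direction and size are compared. Of 123 alternative values, 8 turned direction. Medians were held against the spread between the replicates of their preparation, which is wider in hmC-Seal, and stretch counts against a change of 1.5 times, and 11 of these moved past that. The other 104 did neither. A value that retained its direction may still have changed much in size, as with regions for the share of the list and the copy. Counting regions turned the ratio of mitochondrial summits to 0.735 (hmC-Seal to conventional) and 0.893 (hmC-Seal to bisulfite), and the hmC-Seal against bisulfite differences to -0.396 percentage points in the share of the list and 7.76 in the copy. A −log10 q of at least 10 turned the ratio of bisulfite to conventional to 1.09. Leaving out 1 library moved the hmC-Seal against bisulfite difference in the share of the list between -0.422 and 0.994 (with -0.277 without bisulfite replicate 1) and in the copy between -6.62 and 3.69 percentage points. In the same way, the ratios of summits ranged from 1.97 to 2.98 (hmC-Seal to conventional), 0.466 to 0.986 (bisulfite to conventional) and 2.4 to 5.09 (hmC-Seal to bisulfite). For these pairs the differences ranged from -15.1 to -11.3 and -15.4 to -11.6 percentage points in the share of the list (first 2 pairs), 41.2 to 55.0, -19.7 to -1.48 and 49.6 to 67.8 in coverage, and -26.8 to -16.4 and -21.2 to -19.0 in the copy (first 2 pairs). Stretches in all libraries numbered 4 to 6. The causes were not tested. Pairing by replicate number (replicate block) gave 2.42, 0.693 and 3.50 for the ratios of summits of hmC-Seal to conventional, bisulfite to conventional and hmC-Seal to bisulfite, and turned no direction. Counting only summits inside the copy, an alternative added after seeing the data, turned none either.

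Stretches called in all 6 libraries went from 4 to 10 and 12 as sites with a summit of every library within 50 and 100 bp. The median fold enrichment with 1 summit per region was 1.54 and 1.56 (conventional), 1.39 (bisulfite replicate 2), and 1.76 and 2.09 (hmC-Seal), the last 2 within the wider spread of that preparation, and with −log10 q of at least 3 it was 1.56 and 1.52 (conventional) and 1.48 and 1.39 (bisulfite). A rounded pileup in the Poisson formula gave a median of 561 and 565 in bisulfite replicates. The lists were called separately. The methods planned more reads for bisulfite and hmC-Seal than for conventional libraries, the depth reached is not in the lists, and the conventional lists differ from the others in aligner and IgG tag, so a missing call is no evidence of missing signal.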
